A study of Mus musculus with 3 samples.

Results

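Rgs9, Ptpn5, Rasd2 and Creb1 are 4 genes through which medium spiny neurons, the main neurons of the striatum, shape their response to dopamine and cAMP. Occupancy of the genome by PARP-1, a nuclear enzyme that attaches ADP-ribose chains to itself, histones and other chromatin proteins, was compared at these genes between mice given cocaine and mice given saline. All rows of the authors' deposited table of differential PARP-1 sites that name one of the 4 genes were taken. They comprised 4 sites, 1 in each gene, of 1727 listed sites, and the genes were 4 of the 688 that the table names. The measurement was ChIP-seq, in which chromatin fragments bound by an antibody to PARP-1 are sequenced, on nucleus accumbens tissue of C57BL/6 mice. One group received cocaine at 20 mg/kg by intraperitoneal injection once a day for 7 days, the other received saline on the same schedule, and both were killed 30 min after the last dose. Bilateral punches from 10 mice were pooled for each replicate, so that no value belongs to a single animal, and the sources used here give neither age nor sex. The labels call the 3 replicates per group independent biological samples, while the series text calls them sequencing replicates. In the table itself, cocaine had 2 values per site and saline 3, and these are the n given below.

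The products of these genes act at successive steps of one response. Dopamine receptors signal through G proteins to adenylyl cyclase and cAMP, and onward to protein kinases and transcription factors in the nucleus. RGS9 speeds the shut-off of G proteins of the Gi class, and its long form is enriched in striatum. PTPN5, also called STEP, is a striatum-enriched tyrosine phosphatase that removes phosphate from the kinase Fyn and from glutamate receptor subunits. RASD2, also called Rhes, is a striatum-enriched small GTPase that dampens dopamine receptor signalling and binds mTOR and huntingtin. CREB1 is a widely expressed transcription factor that is activated by phosphorylation downstream of cAMP and calcium and binds the cAMP response element.

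PARP-1 reads were higher after cocaine than after saline at all 4 sites, by 3.58- to 3.71-fold in the authors' deposited table. Every site held 14.5 to 17.1 normalized reads on average after cocaine and 3.98 to 4.75 after saline. A normalized read is a read count divided by the authors' scaling factor for its library. Across the 1605 listed sites that were higher after cocaine, the median was 15.9 normalized reads after cocaine and 4.46 after saline. In fold change the 4 sites lay near the middle of these higher sites. After cocaine, Rasd2 and Creb1 lay below the lower quartile of 14.8 normalized reads, and Rgs9 and Ptpn5 between the quartiles. The listed sites had been selected by the authors on these same libraries, so neither the direction nor the passing of a test at the 4 sites is independent evidence of a change. The sizes of the changes may be inflated by the same selection, for which the intervals given below do not allow. Since the tissue is a mixture, more bound fragments per cell and more cells with bound fragments cannot be told apart. Occupancy is not expression, so the cell types in the punches could not be checked against marker genes.

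Over the listed sites the libraries held 46406 to 82360 reads, and by the authors' scaling factors the shallowest had 72.3% of the depth of the deepest. The sources used here do not give their total depth. Of the marker lists for astrocytes, the oligodendrocyte lineage, microglia and endothelium, with 29 genes in all, 1 gene (Bcas1, of the oligodendrocyte lineage) held a listed site.

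Rgs9 was the member that acts nearest to the receptor. Its site lay on chromosome 11 (mm9, 109100201 to 109101400, 1200 bp), which the table assigns to the gene body of transcript NM_001165934 on the minus strand. Whether it is exonic or intronic was not given in the table. The midpoint was 58.69 kb from the start of a 68.32 kb gene, or 85.9% of the way along it. The cocaine replicates held 15.61 and 14.77 normalized reads, from 19 and 13 whole reads, and the saline replicates 4.25, 3.65 and 4.37, from 4 reads each. Both cocaine values were above all saline values, and the cocaine values lay close together. The group means were 15.2 ± 0.59 (SD, n = 2) and 4.09 ± 0.39 (SD, n = 3). The limma log2 change was 1.67 ± 0.23 (SE) on the log2(value + 1) scale, with a Benjamini-Hochberg adjusted p of 0.00537. The ratio of reads, corrected for depth, was 3.76 with an exact 95% interval of 1.88 to 8.01. Such an interval covers counting error only and does not allow for the selection of the site.

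Rgs9 was the only member whose site was longer than its best-scoring window. The authors report for each site the 1000 bp window that scored best. At Rgs9 this window (109100401 to 109101400) had a log2 fold change of 2.67, or 6.36-fold, in the authors' deposited table, against 1.89 for the whole site. It ranked 40 of 1727 by window fold change and 92 of 1727 by window p (1.44e-07 in the authors' deposited table). For Ptpn5, Rasd2 and Creb1 the window was the whole site, so no difference between window and site could be read there. Of 674 higher sites longer than 1000 bp and with a mean count under 100, 19 had a difference between window and site at least as large as the 0.78 at Rgs9, and the median difference was 0.20. Because the window is the best-scoring one of its site, some excess over a longer site is built in. The ranks also include sites where the window is the whole site. Reads per replicate within the window were not in the table, so the difference at Rgs9 has no replicate check.

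Ptpn5, which encodes the phosphatase STEP, held its site on chromosome 7 (mm9, 54376701 to 54377700, 1000 bp) in the gene body of NM_001163565 on the minus strand. The midpoint was 10.77 kb from the start, 19.7% along a gene of 54.80 kb. The cocaine replicates held 20.54 and 13.64 normalized reads, from 25 and 12 reads, and the saline replicates 5.31, 4.56 and 4.37, from 5, 5 and 4 reads. The cocaine values were above all saline values but far apart, with the widest spread of the 4 sites. The means were 17.1 ± 4.88 (SD, n = 2) and 4.75 ± 0.50 (SD, n = 3). The limma log2 change was 1.63 ± 0.28 (SE; adjusted p = 0.00537), and the depth-corrected ratio of reads was 3.72 (exact 95% interval 1.97 to 7.46). Of the 4 sites, Ptpn5 moved most when a cocaine replicate was left out. The limma log2 change was 1.35 without that replicate and 1.91 without cocaine replicate 2.

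Rasd2, which encodes the GTPase Rhes, held its site on chromosome 8 (mm9, 77741301 to 77742300, 1000 bp) in the gene body of NM_029182 on the plus strand. Rasd2 was the shortest of the 4 genes, 10.17 kb, and its site was the nearest to a start, at 3.96 kb or 38.9% of the gene. The cocaine replicates held 13.14 and 15.91 normalized reads, from 16 and 14 reads, and the saline replicates 3.19, 5.47 and 3.28, from 3, 6 and 3 reads. The groups did not overlap, and saline replicate 2 was above the other saline replicates. The means were 14.5 ± 1.96 (SD, n = 2) and 3.98 ± 1.29 (SD, n = 3), the widest saline spread of the 4 sites. The limma log2 change was 1.66 ± 0.30 (SE; adjusted p = 0.00544), and the depth-corrected ratio of reads was 3.52 (exact 95% interval 1.75 to 7.55). Leaving out saline replicate 2 gave a limma log2 change of 1.87.

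Creb1, the transcription factor gene at the nuclear end of the pathway, held its site on chromosome 1 (mm9, 64649801 to 64650800, 1000 bp) in the gene body of NM_133828 on the plus strand. The site lay at the far end of the gene. Its midpoint was 70.92 kb from the start of a 71.74 kb gene, 98.9% along, and its edge was 321 bp before the annotated end. The cocaine replicates held 15.61 and 13.64 normalized reads, from 19 and 12 reads, and the saline replicates 4.25, 3.65 and 4.37, from 4 reads each. The groups did not overlap. The means were 14.6 ± 1.39 (SD, n = 2) and 4.09 ± 0.39 (SD, n = 3). The limma log2 change was 1.62 ± 0.24 (SE; adjusted p = 0.00537), and the depth-corrected ratio of reads was 3.64 (exact 95% interval 1.82 to 7.78).

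**Figure D1:**
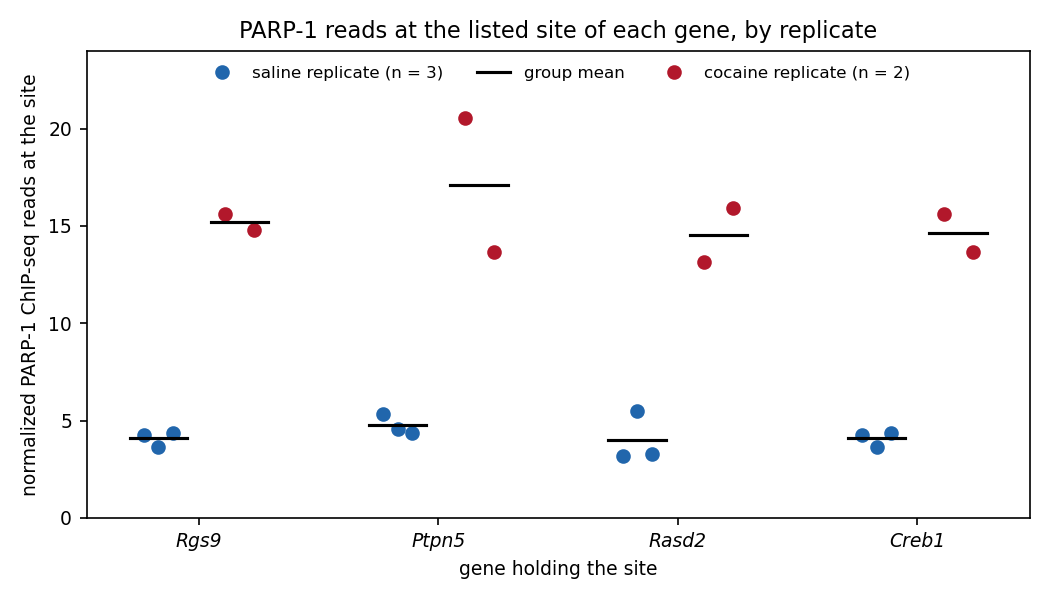
Normalized PARP-1 reads (vertical axis) at the listed site of each gene (horizontal axis), with 1 point per replicate, blue for saline and red for cocaine, and black bars for group means. At each gene both cocaine points lie above the 3 saline points, and the cocaine points of Ptpn5, at 20.54 and 13.64, are the farthest apart.

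All 4 sites passed limma's test as higher, as did 90.2% of all listed sites. At all 4 the groups did not overlap, which held with cocaine higher at 92.2% of listed sites. An adjusted p under 0.05 with a higher value in the authors' deposited table was shared by 92.3% of listed sites, and in the exact conditional test on recovered reads by 91.9%. Passing is therefore no result about these genes. The exact test gave unadjusted p of 4.05e-05 at Rgs9, 1.08e-05 at Ptpn5, 0.000115 at Rasd2 and 6.84e-05 at Creb1. It sums reads over the libraries of each group, so these p-values cover counting error only and not spread between replicates. For a single site, 2 against 3 replicates can be arranged in 10 ways, so the exact permutation test (one-sided) gave p = 0.1 at each site, the smallest it allows.

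The order of the levels after cocaine was Ptpn5, Rgs9, Creb1 and Rasd2. Levels here are reads per site, not corrected for length. The Rgs9 site was 1200 bp long and those of Ptpn5, Rasd2 and Creb1 1000 bp, so its place in the order depends on length. The highest and lowest means, 17.1 at Ptpn5 and 14.5 at Rasd2, differed by less than the SD of 4.88 at Ptpn5. After saline the order was Ptpn5, then Rgs9 and Creb1 with the same 3 values, then Rasd2, with means from 4.75 to 3.98. The limma log2 changes, from 1.62 at Creb1 to 1.67 at Rgs9, differed by less than the SE of any of them. The exact intervals of the 4 read ratios all covered 1.97 to 7.46, so a difference in change between the sites was not detectable at this depth. Against all higher sites the changes were ordinary. Of the higher sites, 59.4% had a smaller fold change in the authors' deposited table than Rgs9, 56.1% than Rasd2, 52.0% than Ptpn5 and 49.5% than Creb1. The median limma log2 change was 1.65 over the 4 sites and 1.67 over all listed sites.

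**Figure D2:**
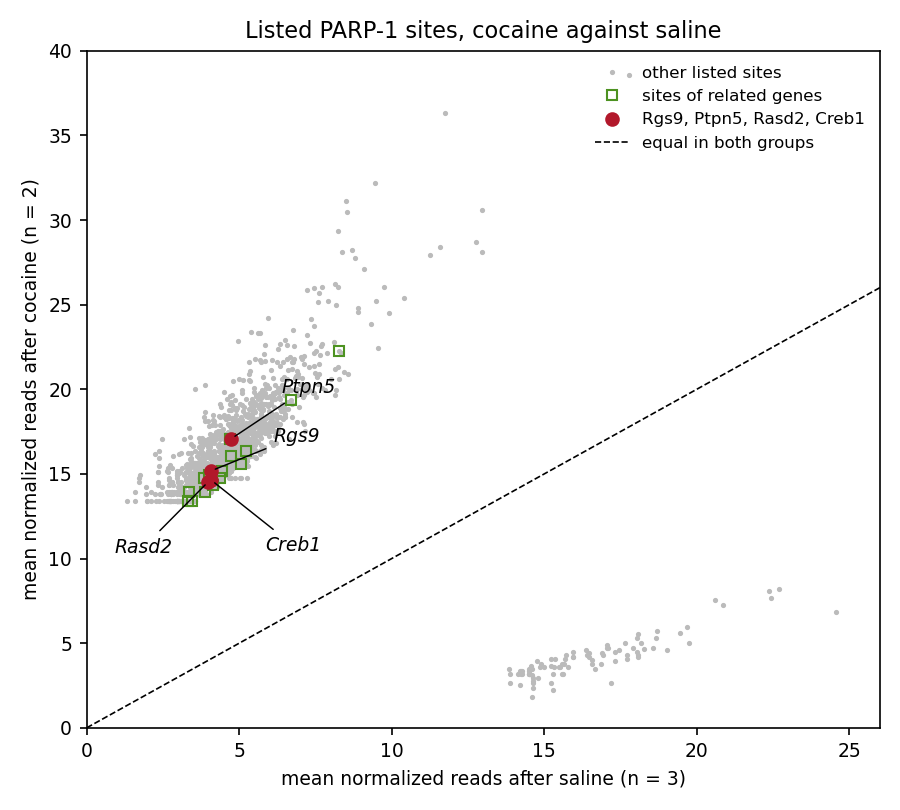
Mean normalized reads after saline (horizontal axis) and after cocaine (vertical axis) for the 1646 listed sites within the plotted range, with 81 beyond it not shown. The red points of Rgs9, Ptpn5, Rasd2 and Creb1 lie inside the dense cloud of grey higher sites above the dashed line of equality. The green squares of related genes also lie above the line. Those of Pde1c and of 1 Ptprt site lie beyond the upper quartiles of the higher sites in both groups. Both of these sites are 1400 bp long, and the reads are not corrected for length.

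Small numbers of reads limited what could be told apart. At the higher sites with a mean count under 100, no cocaine replicate 1 value was below 13.14 normalized reads (16 reads) and no cocaine replicate 2 value below 13.64 (12 reads). Rasd2 was at this minimum in cocaine replicate 1, and Ptpn5 and Creb1 were at it in cocaine replicate 2. At least 1 cocaine library was at its minimum at 32.7% of those higher sites. Rgs9 was not at the minimum in either library. Higher sites with fewer cocaine reads are not in the table, so an SD near this minimum is not a full measure of replicate error.

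In the authors' deposited table the enrichment of each site over a background set by the authors was 3.30 at Rgs9, 2.58 at Rasd2, 2.57 at Ptpn5 and 2.04 at Creb1 after cocaine. After saline it was 0.93, 0.74, 0.75 and 0.60. Each of the 4 sites thus went from below background after saline to above it after cocaine, as did 66.2% of all higher sites. Enrichment ordered the sites differently from the read counts. Rgs9 had the highest enrichment in both groups and Creb1 the lowest, although their saline reads were identical. The sources used here do not say how the background was set.

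None of the 4 sites lay in a promoter by the table's annotation. In 667 higher gene-body sites the median position was 57.1% of the gene's length from its start, with quartiles of 30.1% and 79.4%. Ptpn5 lay before the lower quartile and Rgs9 and Creb1 beyond the upper one. The Creb1 site was in the last 5% of its gene, as were 8.55% of higher gene-body sites. The 4 genes were shorter than most genes of such sites, which had a median length of 92.4 kb.

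**Figure D3:**
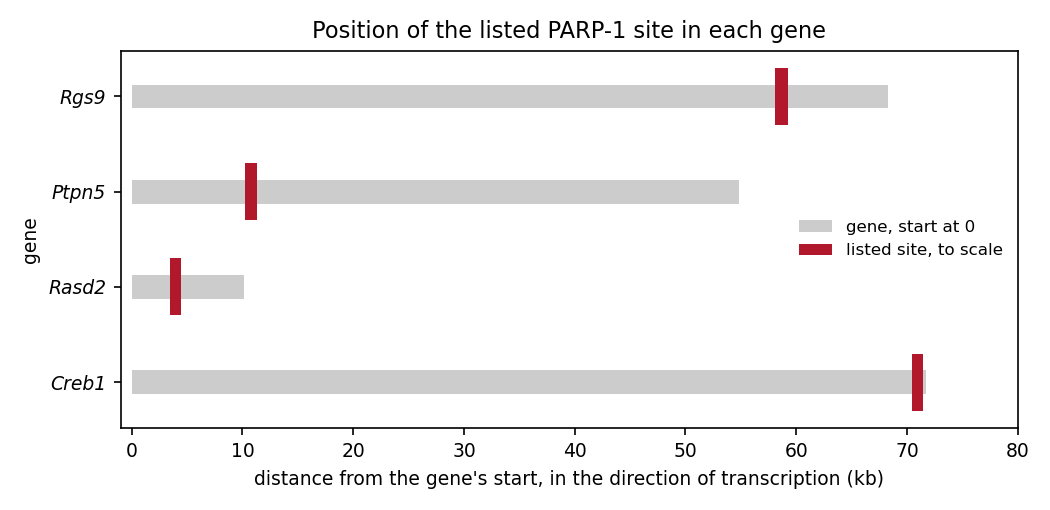
Each gene drawn to scale as a grey bar from its start at 0 to its end (horizontal axis, kb, in the direction of transcription), with its listed site in red. The site of Ptpn5 lies 10.77 kb from the start (19.7% along the gene) and that of Rasd2 3.96 kb (38.9%). Those of Rgs9 and Creb1 lie toward the end, at 58.69 kb (85.9%) and 70.92 kb (98.9%).

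No member had a second listed site in or beside its gene. The nearest listed sites were 371.5 kb away for Rgs9, 212.4 kb for Ptpn5 (in Tsg101), 755.3 kb for Creb1 and 2919.0 kb for Rasd2. The median gap to the nearest listed site was 403.9 kb and the upper quartile 910.5 kb. Rasd2 was thus beyond the upper quartile, Creb1 between it and the median, and Rgs9 and Ptpn5 below the median. The sites next to the 4 members on both sides were all higher after cocaine, as were 1605 of all 1727 listed sites.

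Rgs9 and Creb1 had nearly the same reads per site, although the Rgs9 site was 1200 bp long and the Creb1 site 1000 bp. Their saline reads were the same in each library, and their cocaine reads differed by 1 in 1 library. Each shared its saline reads with 12 other listed sites, the site of the other gene included. The distance between them, taken as the Euclidean distance in log2(value + 1) over the 5 libraries, was 0.107, against 0.527 to 0.957 for the other 5 pairs. By this measure the nearest genes to Rgs9 were Creb1, Anks1b (0.15) and Thsd4 (0.18), and the nearest to Creb1 were Rgs9, Anks1b (0.18) and Thsd4 (0.26). Rab11fip4 (0.30), Akap13 (0.32) and Acap2 (0.32) were nearest to Ptpn5, and Atp6v0a4 (0.082), Impg2 (0.24) and Rab36 (0.25) to Rasd2. Such likeness was common at these low counts. Other listed sites within a distance of 0.5 numbered 153 for Rgs9, 128 for Creb1, 80 for Rasd2 and 49 for Ptpn5.

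Because Rgs9 and Creb1 were so alike in reads, their promoters are shown as RefSeq gives them in build GRCm38.p6, a later build than that of the sites. Both were taken as the 250 bases before the start, at chr11:109298182-109298431 on the minus strand for Rgs9 and chr1:64532554-64532803 on the plus strand for Creb1. They are printed 5′ to 3′ with GC boxes (GGGCGG or its reverse complement CCGCCC) in capitals.
Rgs9: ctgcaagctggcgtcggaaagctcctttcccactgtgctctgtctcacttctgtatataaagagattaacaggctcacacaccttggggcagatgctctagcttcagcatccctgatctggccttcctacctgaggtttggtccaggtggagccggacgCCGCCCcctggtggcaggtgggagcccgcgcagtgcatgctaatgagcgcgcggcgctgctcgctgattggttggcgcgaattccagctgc
Creb1: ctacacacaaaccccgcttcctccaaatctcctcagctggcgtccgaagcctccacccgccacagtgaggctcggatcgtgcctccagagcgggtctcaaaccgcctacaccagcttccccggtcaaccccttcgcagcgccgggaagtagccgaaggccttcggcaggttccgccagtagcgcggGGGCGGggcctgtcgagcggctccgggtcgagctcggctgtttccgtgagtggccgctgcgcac
Each held 1 GC box, a motif found on either strand in 32.7% of the 32851 promoter windows of the same length. The GC content was 59.6% for Rgs9 and 67.6% for Creb1, with 14 and 26 CpG pairs, against medians of 52.4% and 6 over all windows. The table of promoters had 2 windows for Ptpn5, with 0 and 3 GC boxes, and 1 for Rasd2, with none and a GC content of 75.2%. The cAMP response element to which CREB1 binds was searched on both strands as the full site TGACGTCA, in 1.5% of all windows, and as the shorter core TGACG, which the full site contains, in 17.8%. Neither was in the 5 windows of the 4 genes. This says only that these letters are not in these windows, and the listed sites themselves lay elsewhere. The bases under the PARP-1 sites were not analysed here.

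Other genes of the pathway were taken from 7 lists by role, with 154 genes that RefSeq names. Without the 4 members, 6 of 150 held a listed site (4.0%), against 671 of 21900 protein-coding genes (3.06%). All 6 sites passed limma's test as higher and none as lower, where 90.2% of all listed sites passed as higher, with a median log2 change of 1.67, the same as over all listed sites. None of the 20 symbols for dopamine synthesis and receptors held a listed site, so Drd2, which encodes a receptor whose signal RGS9 shortens, was not among them. The 28 symbols for CREB targets and activity genes, such as Fos, Bdnf and Pdyn, also had 0 listed sites. Absence from the list is not absence of PARP-1, since only differential sites were listed.

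Among G proteins and their regulators, Rgs7 held a site beside that of Rgs9. RGS7 belongs to the same R7 group of regulators as RGS9. Its reads were 13.97 and 14.77 after cocaine and 6.37, 2.74 and 3.28 after saline, with a limma log2 change of 1.65 ± 0.36 (SE; adjusted p = 0.00741). The groups did not overlap, and saline replicate 1 was the highest of its group.

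In the list of 24 cAMP and PKA genes 4 held a site, and 3 of these encode enzymes that break down cyclic nucleotides. Other genes of such enzymes in the list, among them Pde10a and Pde1b, held none. Pde4b rose from 4.10 ± 1.20 (SD, n = 3) to 14.8 ± 0.01 (SD, n = 2) normalized reads. In the same units Pde8b rose from 4.72 ± 2.63 to 16.1 ± 2.98 and Pde1c from 8.28 ± 3.82 to 22.3 ± 7.08. The cocaine SD of 0.01 at Pde4b came from 2 libraries with 18 and 13 reads, so it understates the counting error. Pde1c, which encodes a calcium-stimulated phosphodiesterase, had the highest counts of the pathway and the smallest limma log2 change, 1.39 ± 0.45 (SE; adjusted p = 0.0251). Its site was 1400 bp long, and those of Pde4b and Pde8b 1000 bp, so its high counts depend in part on length. Prkar2a, the gene of a regulatory subunit of the cAMP-dependent kinase PKA, rose from 4.02 ± 1.63 to 14.9 ± 1.37. Like that of Creb1, its site was at the end of the gene, 99.4% of the way along.

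Ptpn5 was the only gene of the 29 in its own list with a listed site, so the glutamate receptor genes Grin2b and Gria2, whose products it acts on, had none. The same held for Rasd2 in its list of 16 symbols. In the CREB list Atf2 joined Creb1. Atf2 encodes a leucine-zipper factor that also binds cAMP response elements. It held 14.79 and 14.77 normalized reads after cocaine and 3.19, 7.29 and 1.09 after saline, with a limma log2 change of 1.92 ± 0.58 (SE; adjusted p = 0.0192). Its saline values were widely spread and rested on 3, 8 and 1 reads.

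The calls depended on single cocaine libraries. At the 4 sites the direction could not, since both cocaine values were above all saline values. Without cocaine replicate 2, limma passed 0 of the 4 sites (smallest adjusted p = 0.0561, with 4 of 4 at an unadjusted p under 0.05) and 0 of all 1727. Without cocaine replicate 1 it passed all 4, at adjusted p of 0.0485 to 0.0488, and 794 of all sites. In either case the single cocaine sample left is assumed to vary like the saline group.

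**Figure D4:**
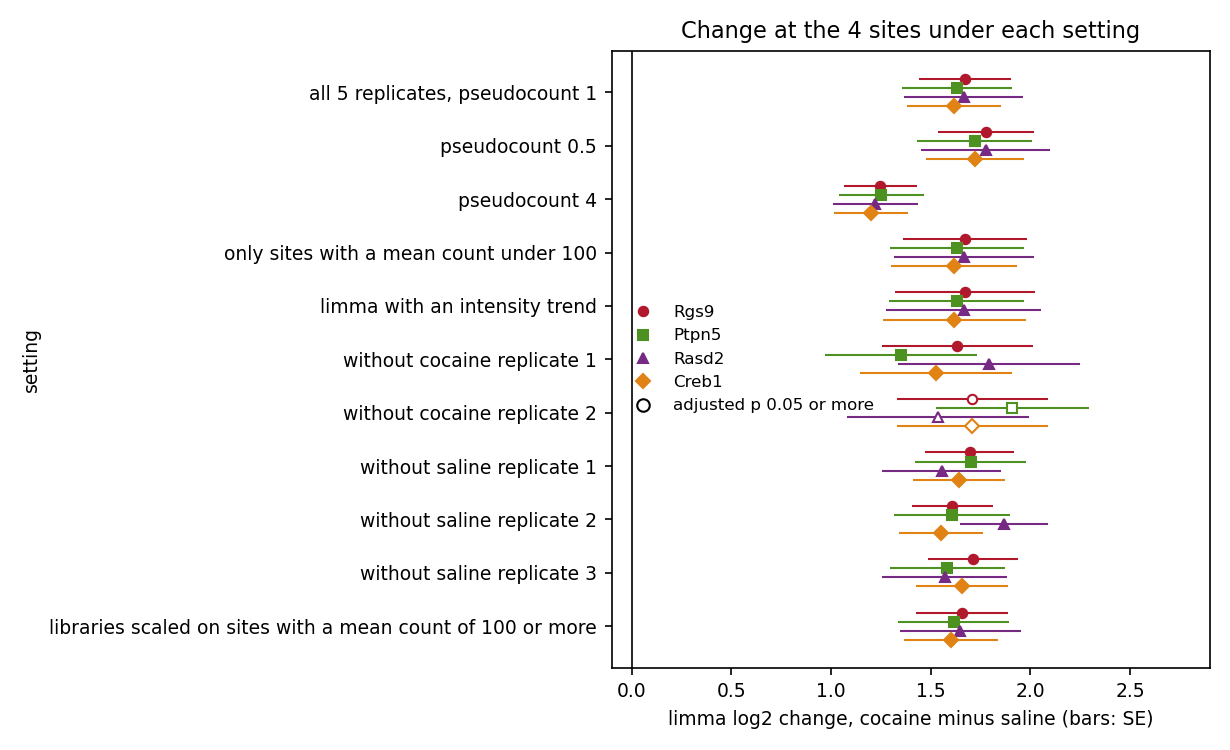
The limma log2 change, cocaine minus saline (horizontal axis, bars ± SE), for each gene under each setting (vertical axis), with open symbols where the adjusted p was 0.05 or more. All points lie between 1.20 and 1.91, and the open symbols are those without cocaine replicate 2.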

How the data were processed

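PARP-1 ChIP-seq was compared between 2 cocaine and 3 saline replicates of nucleus accumbens, each stated to be from 10 pooled mice. As given above, the labels and the series text differ on whether the replicates are independent samples. Per the labels' protocols, chromatin was precipitated with the antibody ab6079, 250 to 350 bp fragments were selected, PCR ran for 21 cycles, and read length was 100 bp. CASAVA 1.8.2 and mm9 are named in the submitters' processing notes. The name of the deposited table gives diffReps and a negative binomial test. The sources used here do not name the aligner, the duplicate handling or the listing threshold. An input sample was not analysed here.

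The deposited table holds, per the file headers, normalized read counts per replicate, the mean signal of each group, enrichment as a ratio, log2 fold change, and p-values of the authors. Control was taken as saline, which the series text calls control. Which cocaine replicates were listed was not stated, and replicate numbers give only the order in the table. All 8635 values were whole multiples of 1 value per library within 0.1 read (100.0%), so whole reads were recovered. PCR reads are not independent molecules.

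limma 3.58.1 (R 4.3.3) was fitted to log2(value + 1) over all 1727 sites, with Benjamini-Hochberg adjustment. An exact two-sided binomial test (scipy 1.17.1, Clopper-Pearson intervals), added after seeing the data, compared the cocaine share of reads with the cocaine share of depth, 41.5%. Both were run on simulated Poisson reads, with no added spread between replicates and no selection of sites. That setting is simpler than these data, so it does not check either test for them. Permutation and limma p-values measure the spread between replicates only. If these are sequencing replicates, that spread leaves out differences between pools. Exact-test p-values cover counting error only. Named genes were the 4 members, pathway and same-family genes with a site, and the 3 nearest genes by reads. The members and lists were chosen with earlier results of these data known. Alternatives were other pseudocounts, scalings and site sets, a variance trend and leaving out each replicate.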

Additional observations from a re-analysis of the deposited data

How the results depend on the processing

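At the 4 sites the direction was the same under all 11 alternatives. Leaving out a replicate or changing the pseudocount could not reverse it, since every cocaine value was above every saline value. The limma or read-ratio log2 changes were 1.25 to 1.91 at Rgs9, 1.25 to 1.91 at Ptpn5, 1.22 to 1.87 at Rasd2 and 1.20 to 1.86 at Creb1. The lowest values came from a pseudocount of 4. Leaving out 1 replicate at a time gave limma log2 changes of 1.61 to 1.71 at Rgs9, 1.35 to 1.91 at Ptpn5, 1.54 to 1.87 at Rasd2 and 1.53 to 1.71 at Creb1. The number of the 4 sites past an adjusted p of 0.05 was then 0 to 4, that of the 10 pathway sites 0 to 10 and that of all listed sites 0 to 1651, each 0 without cocaine replicate 2. Without cocaine replicate 1 the last 2 counts were 6 and 794. The cause was not tested. The other alternatives passed all 4 and all 10 of these sites, and 1591 to 1698 of all listed sites. A quasi-likelihood count model planned on the recovered reads was not run, and the exact test took its place. No paired analysis was possible because the values in the table carry no replicate labels and the groups hold 2 and 3 of them. Depth limits the 4 sites to 30 to 37 cocaine reads and 12 to 14 saline reads.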

Other observations

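Relatives of Rgs9 and Ptpn5 outside the pathway lists also held listed sites, all in gene bodies and all higher after cocaine. Both traits were common, since of all 1727 listed sites 1605 were higher, 770 were annotated to a gene and 685 lay in gene bodies. Beside Rgs7, the Rgs genes were Rgs3, with 2 sites, and Rgs12, with 1. Rgs12, the gene of a large multidomain regulator of G proteins, rose from 3.36 ± 1.06 (SD, n = 3) to 13.96 ± 1.15 (SD, n = 2) normalized reads, with a limma log2 change of 1.81 ± 0.30 (SE; adjusted p = 0.00537). The Rgs3 sites lay 35.2 and 62.9 kb from the starts of 2 transcripts and had limma log2 changes of 1.58 and 1.68. No gene with a symbol beginning Rasd, Crem or Crtc held a site besides Rasd2.

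Tyrosine phosphatase genes other than Ptpn5 held 7 sites in 5 genes, with a median limma log2 change of 1.60 against 1.67 over all listed sites, and all 7 passed limma's test as higher, as did 90.2% of all listed sites. Ptprt and Ptprd, which encode receptor-type phosphatases, are much longer genes than Ptpn5, at 1133.5 and 653.1 kb. Ptprt held 2 sites, of 1000 and 1400 bp, with means of 15.6 and 19.4 normalized reads after cocaine and 5.06 and 6.69 after saline. Ptprn, the gene of a dense-core vesicle membrane protein, held 13.14 and 14.77 normalized reads after cocaine and 6.37, 0.91 and 4.37 after saline. The values at Ptprn varied widely after saline, from 1 to 6 reads, and its limma adjusted p was 0.0249.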
